A study of Mus musculus with 5 samples.

Results

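The genes described here are 45 enzymes, regulators and import factors of fatty acid oxidation and peroxisomes, chosen by name. Of these, 43 had a probe set with a single gene symbol on the array and are the measured members, out of 12393 genes measured in all. Acsl1 and Acsl3 were not analysed here. Expression was measured in 3 Apc1638N intestinal tumours (tumours 16, 18 and 2) and in 2 samples of normal intestinal epithelium from wild-type mice (wild types 36 and 62), on 1 Affymetrix array each. All 5 samples came from C57Bl6/J males aged 8 months, housed specific-pathogen-free with free access to food. Apc1638N mice carry a mutant allele of Apc in the germ line, whose protein product keeps Wnt signalling in check. Epithelial cells were collected by laser capture microdissection, that is, cut from tissue sections under a microscope. The normal tissue came from other animals than the tumours, the intestinal segment is not given in these sources, and the labels do not say that every array is a separate animal. P-values therefore measure only the spread between these samples.

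Fatty acids are activated to acyl-CoA, carried into mitochondria as carnitine esters, and shortened there by a cycle of dehydrogenation, hydration, a second dehydrogenation and thiolysis. Peroxisomes run a parallel cycle on very long, branched and dicarboxylic chains, with their own enzymes encoded by separate genes, and pass shortened chains on to mitochondria. In the small intestine both pathways operate in the absorptive enterocytes of the villus, and many of their genes are targets of the lipid-sensing nuclear receptor PPAR alpha and its coactivator PGC-1 alpha.

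Each value below is a deposited log2 signal, where 1 unit is a factor of 2, and each change is the tumour mean minus the wild-type mean. Of the 43 measured members, 20 fell, 1 rose and 22 did not pass an adjusted p of 0.05 in limma. All SEs and adjusted p-values of single genes below are limma's, adjusted over all genes unless stated otherwise. Among all 12393 genes, 10.5% were lower by the same rule and 11.3% were higher. The median change of the members was -0.56, against 0.00 over all genes. The tumour values of 32 members lay wholly below the wild-type values, and 1 lay wholly above, where the shares over all genes were 23.7% and 27%. The tumour and wild-type values of all 21 called members did not overlap. The same held for all 1300 genes called lower, so this adds nothing to the calls. A fall of 1 or more was measured for 12 members, against 5.18% of all genes. That these genes are lower in tumours was known from earlier work on the same arrays, so the counts are not independent evidence of direction.

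The number of calls rested on few arrays. Without tumour 16, tumour 18, tumour 2, wild type 36 or wild type 62, in that order, 8, 8, 23, 5 and 0 members were lower in limma, where 2.9%, 4.05%, 8.75%, 3.36% and 0% of all genes were. In the fit without wild type 62, the median change was -0.59 for mitochondrial and -0.79 for peroxisomal enzymes, against 0.00 over all genes. When probe sets with equal values within a group were dropped as well, the fits without tumour 16, 18 and 2 gave 16, 17 and 27 lower members. Of all genes, 8.05%, 9.67% and 14% were lower in these fits. Acadm, Acaa2 and Amacr kept their call without any 1 array other than wild type 62, and Eci1 lost it without each array in turn.

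**Figure D1:**
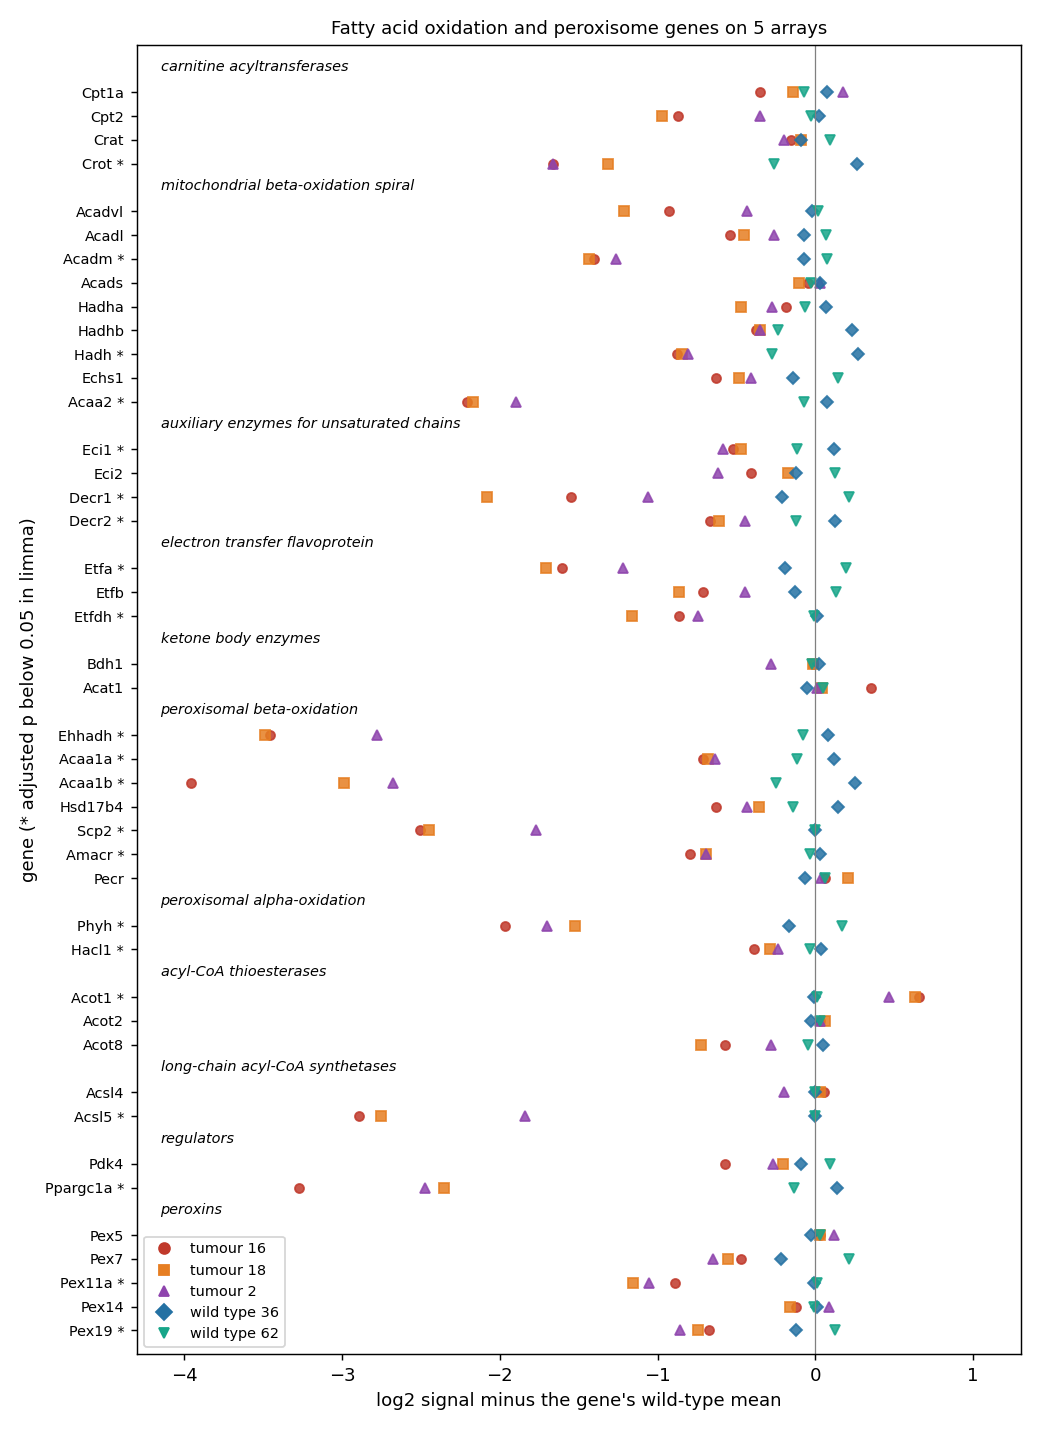
Log2 signal of each of the 43 measured members on each array, minus that gene's wild-type mean (x axis), with genes grouped by role (y axis) and an asterisk where the adjusted p in limma is below 0.05. Tumour points lie left of both wild-type points for 32 genes and right of both for Acot1.

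Several other measurements separated the same groups of arrays. All 10 measured absorptive enterocyte markers had tumour values below both wild-type values, 7 of them with a call, and their mean log2 signal was 7.42 to 8.98 in tumours and 11.84 to 12.07 in wild types. Of 14 cell cycle genes, 11 rose, with means of 8.45 to 8.54 and 7.33 to 7.62. The mean of 8 fibroblast and matrix genes was 7.72 to 9.08 in tumours and 7.10 to 7.39 in wild types, with 1 higher and 1 lower. That of 9 leukocyte genes was 6.79 to 7.11 and 7.06 to 7.17, with 2 lower. Among the other marker lists, 1 of 6 smooth muscle genes and 2 of 4 liver and pancreas genes rose, and the adjusted p of 5 endothelial and 4 adipocyte genes in limma lay between 0.0541 for Lipe and 1 for Kdr. The 10 general epithelial markers had means of 10.70 to 11.04 in tumours and 10.76 to 10.92 in wild types, with 2 higher and 1 lower. The 3′ beta-actin control probe set exceeded the 5′ one by 3.999 to 4.25 in tumours and by 2.51 and 3.32 in wild types. No value on this scale is 0. The part of these differences in the results on the members was not tested, and fewer cells of a type and less RNA per cell cannot be told apart in such samples.

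**Figure D2:**
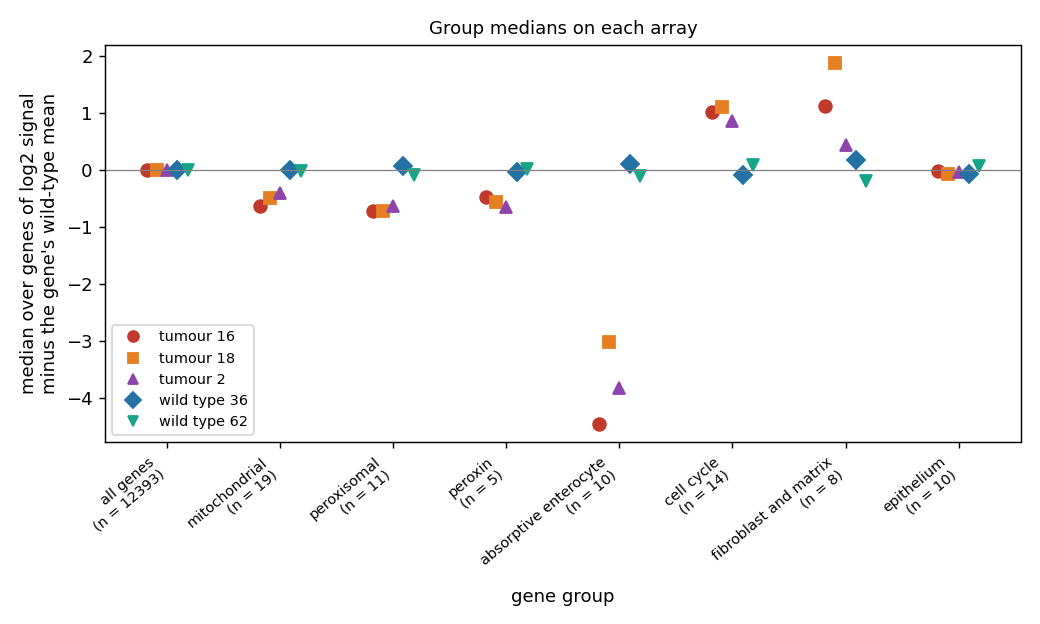
Median over the genes of each group of the log2 signal minus the gene's wild-type mean (y axis) for the 5 arrays and 8 gene groups (x axis). Tumours lie below 0 for mitochondrial enzymes (-0.63 to -0.41), peroxisomal enzymes (-0.72 to -0.63) and enterocyte markers (-4.46 to -3.02), and above 0 for cell cycle genes.

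Promoter sequences are shown for chosen members: the peroxisomal bifunctional enzyme, both peroxisomal thiolases, the coactivator PGC-1 alpha, and the mitochondrial trifunctional protein. PGC-1 alpha is counted with neither organelle's enzymes, and other members with large falls, such as Acaa2, are not shown. The sequences are from RefSeq, assembly GRCm38.p6, read 5′ to 3′ up to the base before the annotated start of the gene. Capitals mark 3 short motifs on either strand: the GC box (GGGCGG), the CCAAT box and the core hexamer of nuclear receptor sites (AGGTCA). A match on the other strand shows as its reverse complement, and no matches overlap in these sequences.
Ehhadh (chr16:21787835-21787984, minus strand): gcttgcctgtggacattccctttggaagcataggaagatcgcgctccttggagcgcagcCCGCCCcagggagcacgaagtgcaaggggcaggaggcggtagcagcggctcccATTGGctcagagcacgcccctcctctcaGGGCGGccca
Acaa1a (chr9:119341144-119341293, plus strand): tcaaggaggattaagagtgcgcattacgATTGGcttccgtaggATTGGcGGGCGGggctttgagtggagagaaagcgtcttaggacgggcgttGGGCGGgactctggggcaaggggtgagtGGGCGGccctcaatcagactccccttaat
Acaa1b (chr9:119157094-119157243, minus strand): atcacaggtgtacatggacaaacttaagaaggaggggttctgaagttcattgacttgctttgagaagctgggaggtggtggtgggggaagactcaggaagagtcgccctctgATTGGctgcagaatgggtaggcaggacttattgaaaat
Ppargc1a (chr5:51567726-51567875, minus strand): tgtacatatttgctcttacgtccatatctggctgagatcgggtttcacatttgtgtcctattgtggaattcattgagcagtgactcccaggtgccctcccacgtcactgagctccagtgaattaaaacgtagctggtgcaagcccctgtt
Hadhb (chr5:30155003-30155252, plus strand): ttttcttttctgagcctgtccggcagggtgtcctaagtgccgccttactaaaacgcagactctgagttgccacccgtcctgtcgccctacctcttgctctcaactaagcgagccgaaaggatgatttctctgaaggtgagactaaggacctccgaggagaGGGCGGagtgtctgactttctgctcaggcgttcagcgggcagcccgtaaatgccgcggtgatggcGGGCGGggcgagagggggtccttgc
The last sequence lies between the starts of Hadha and Hadhb, which point away from each other and are 271 bases apart, so it is the upstream region of both. The upstream region of Acaa1a held 3 GC boxes and 2 CCAAT boxes, and that of Acaa1b held 1 CCAAT box and no GC box. Ehhadh had 2 GC boxes and 1 CCAAT box, the Hadha and Hadhb region had 2 GC boxes, and the Ppargc1a region had no match to these motifs.

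Peroxisomal beta-oxidation held the largest falls among the members. Ehhadh encodes the bifunctional enzyme that hydrates and dehydrogenates straight chains in the peroxisome. Its signal was 5.97, 5.94 and 6.65 in tumours 16, 18 and 2 and 9.51 and 9.35 in wild types 36 and 62. It fell by 3.24 (SE 0.26, adjusted p = 0.00671), and tumours 16 and 18 were dimmer than each array's 25th percentile of signal (6.03 to 6.06), so the size of the fall is uncertain and no fold is given. Acaa1b, one of a pair of peroxisomal 3-ketoacyl-CoA thiolases, stood at 5.54, 6.51 and 6.82 in tumours 16, 18 and 2 and 9.75 and 9.25 in wild types 36 and 62. It fell by 3.21 (SE 0.45, adjusted p = 0.0179), with tumour 16 lowest by almost 1 unit, below the same percentile.

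Acaa1a encodes the other peroxisomal thiolase. Its brightest probe set read 9.82, 9.85 and 9.90 in tumours 16, 18 and 2 and 10.65 and 10.41 in wild types 36 and 62, and it fell by 0.68 (SE 0.08, adjusted p = 0.0139), a 1.60-fold difference. The second Acaa1a probe set differed by -1.11 (adjusted p = 0.0116 in limma over probe sets). The names of both Acaa1a probe sets mark probes shared with other transcripts, and how far they bind Acaa1b RNA was not tested. Another 2 probe sets are annotated to both thiolases and cannot separate them. They differed by -1.71 and -2.28, between the values of the probe sets assigned to Acaa1a and to Acaa1b.

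Scp2, whose longer product is a peroxisomal thiolase for branched chains and whose shorter product is a sterol carrier protein, read 9.16, 9.21 and 9.90 in tumours 16, 18 and 2 and 11.66 and 11.66 in wild types 36 and 62. It fell by 2.24 (SE 0.26, adjusted p = 0.0123), or 4.73-fold. Its wild-type values were nearly equal, which lowers its estimated spread, and its other 3 probe sets differed by -1.37, -0.95 and -0.57, the last without a call. Amacr, a racemase that makes methyl-branched acyl-CoA available for oxidation in peroxisomes and mitochondria, read 5.87, 5.98 and 5.98 in tumours 16, 18 and 2 and 6.70 and 6.64 in wild types 36 and 62. It fell by 0.73 (SE 0.05, adjusted p = 0.00578), and all 3 tumour values were below the 25th percentile. Hsd17b4, the bifunctional enzyme for branched chains and bile acid precursors, had lower values in every tumour than in either wild type, but its change of -0.48 did not pass. Its dimmer probe set differed by -0.81 and was called (adjusted p = 0.0228 over probe sets in limma). Pecr, a peroxisomal trans-2-enoyl-CoA reductase of chain elongation, differed by 0.10, with overlapping groups.

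Both genes of peroxisomal alpha-oxidation fell. This pathway removes 1 carbon from phytanic acid and similar methyl-branched chains. Phyh, the phytanoyl-CoA hydroxylase of its first step, read 7.77, 8.22 and 8.03 in tumours 16, 18 and 2 and 9.57 and 9.90 in wild types 36 and 62. It fell by 1.73 (SE 0.18, adjusted p = 0.00993), or 3.32-fold, and tumour and wild-type values were more than 1 unit apart. Hacl1, the lyase that follows, read 6.07, 6.17 and 6.22 in tumours 16, 18 and 2 and 6.49 and 6.42 in wild types 36 and 62 and fell by 0.30 (SE 0.06, adjusted p = 0.0363), a 1.23-fold difference with little distance between the groups.

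Among the carnitine acyltransferases, the peroxisomal one passed and those of mitochondria did not. Crot, which makes carnitine esters of medium chains for export from the peroxisome, read 7.39, 7.74 and 7.39 in tumours 16, 18 and 2 and 9.32 and 8.79 in wild types 36 and 62. It fell by 1.54 (SE 0.21, adjusted p = 0.0169), or 2.92-fold. Cpt1a, the outer membrane enzyme that controls entry of long chains into mitochondria, read 8.45, 8.66 and 8.98 in tumours 16, 18 and 2 and 8.88 and 8.73 in wild types 36 and 62. Its change of -0.11 did not pass, its groups overlapped, and the 95% interval of -0.58 to 0.37 includes both a fall and a rise. The other Cpt1a probe sets differed by -0.10 and 0.11, without a call. Cpt2, which returns the chain to CoA inside, read 8.64, 8.53 and 9.16 in tumours 16, 18 and 2 and 9.53 and 9.48 in wild types 36 and 62. The tumour values were all lower, by 0.73 on average, without a call. The other Cpt2 probe set differed by -0.04, with overlapping groups. Crat, the acetyl-carnitine enzyme of both organelles, differed by -0.15 in the probe set with the higher mean and by -1.14 in the other, which was called (adjusted p = 0.0079 over probe sets in limma).

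In the mitochondrial cycle the changes were uneven. Acadm, the medium-chain acyl-CoA dehydrogenase, read 8.23, 8.20 and 8.37 in tumours 16, 18 and 2 and 9.56 and 9.71 in wild types 36 and 62. It fell by 1.37 (SE 0.08, adjusted p = 0.00498), or 2.58-fold. Acadvl, the very-long-chain dehydrogenase of the inner membrane, read 9.54, 9.26 and 10.03 in tumours 16, 18 and 2 and 10.45 and 10.49 in wild types 36 and 62 and differed by -0.86, with tumours 18 and 2 almost 0.8 apart and no call. Acadl, the long-chain dehydrogenase, differed by -0.42 in its brightest probe set and by -3.4e-05 in the other, both without a call. Acads, the short-chain dehydrogenase, differed by -0.04, with overlapping groups and a 95% interval of -0.19 to 0.10.

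Acaa2 is the mitochondrial thiolase that ends the cycle. Its signal was 8.97, 9.01 and 9.28 in tumours 16, 18 and 2 and 11.25 and 11.11 in wild types 36 and 62. It fell by 2.09 (SE 0.12, adjusted p = 0.00498), or 4.27-fold, and its other 2 probe sets were also called, at -1.50 and -0.88. Hadh, the dehydrogenase for medium and short chains, read 12.79, 12.82 and 12.86 in tumours 16, 18 and 2 and 13.94 and 13.39 in wild types 36 and 62 in its brightest probe set. It fell by 0.84 (SE 0.18, adjusted p = 0.0398), or 1.79-fold. A dimmer Hadh probe set differed by -2.79 (SE 0.12, adjusted p = 0.0048 over probe sets in limma) and another by -0.83. The Hadh change thus ranged from -2.79 to -0.83 with the probe set, so its fold is uncertain. The 2 probe sets with the smaller changes have names that mark probes shared with other transcripts.

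The 2 subunits of the mitochondrial trifunctional protein, which share the upstream region printed above and process long chains at the inner membrane, did not pass. Hadha read 7.29, 7.01 and 7.21 in tumours 16, 18 and 2 and 7.55 and 7.42 in wild types 36 and 62 and differed by -0.31. Hadhb read 9.91, 9.93 and 9.93 in tumours 16, 18 and 2 and 10.52 and 10.05 in wild types 36 and 62 and differed by -0.36. In both, every tumour value lay below both wild-type values. The dimmer Hadhb probe set differed by -1.22 and was called (adjusted p = 0.0251 over probe sets in limma). Echs1, the short-chain enoyl-CoA hydratase, differed by -0.51 with an adjusted p of 0.0501, just outside the threshold, and its groups did not overlap.

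Of 4 enzymes that prepare double bonds for oxidation, 3 fell, in both organelles. Decr1, the mitochondrial 2,4-dienoyl-CoA reductase, read 8.52, 7.98 and 9.003 in tumours 16, 18 and 2 and 9.85 and 10.28 in wild types 36 and 62. It fell by 1.56 (SE 0.35, adjusted p = 0.0465), or 2.95-fold, with tumours spread over 1.02 units and tumour 18 lowest. This call was lost when probe sets with shared targets were dropped (adjusted p = 0.0536 in limma), at the same change on the same probe set. Its other probe set differed by -0.90 (adjusted p = 0.0294 over probe sets in limma). Decr2, its peroxisomal counterpart, read 7.10, 7.16 and 7.32 in tumours 16, 18 and 2 and 7.89 and 7.64 in wild types 36 and 62 and fell by 0.57 (SE 0.11, adjusted p = 0.0333). Eci1, the mitochondrial delta3-delta2-enoyl-CoA isomerase, read 8.17, 8.21 and 8.10 in tumours 16, 18 and 2 and 8.80 and 8.57 in wild types 36 and 62 and fell by 0.53 (SE 0.09, adjusted p = 0.0237). Eci2, the isomerase found mainly in peroxisomes, differed by -0.40 without a call.

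Electrons from the acyl-CoA dehydrogenases pass to the electron transfer flavoprotein and on to the respiratory chain. Etfa, its alpha subunit, read 8.22, 8.12 and 8.61 in tumours 16, 18 and 2 and 9.63 and 10.02 in wild types 36 and 62. It fell by 1.51 (SE 0.20, adjusted p = 0.0168), or 2.85-fold. Etfdh, the oxidoreductase that hands the electrons to ubiquinone, read 7.10, 6.80 and 7.22 in tumours 16, 18 and 2 and 7.97 and 7.95 in wild types 36 and 62 and fell by 0.92 (SE 0.14, adjusted p = 0.0201), or 1.90-fold. Etfb, the beta subunit, differed by -0.67 with an adjusted p of 0.0523. For all 3 genes tumour 2 was the highest of the tumours and still below both wild types.

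The 2 ketone body enzymes did not pass. Acat1, the mitochondrial acetoacetyl-CoA thiolase, read 11.44, 11.13 and 11.10 in tumours 16, 18 and 2 and 11.04 and 11.14 in wild types 36 and 62, with a change of 0.13 and overlapping groups. Bdh1, the 3-hydroxybutyrate dehydrogenase, differed by -0.11. The other 2 Acat1 probe sets differed by -0.30 and -0.04, and the other Bdh1 probe set by -0.48, none with a call.

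The thioesterases, which split acyl-CoA back to free acid, included the only member that rose. Acot1, the cytosolic enzyme, read 6.49, 6.46 and 6.30 in tumours 16, 18 and 2 and 5.82 and 5.84 in wild types 36 and 62. It rose by 0.58 (SE 0.07, adjusted p = 0.0134), with both wild-type values below the 25th percentile, and so no fold is given. Acot2, its near-identical mitochondrial relative, differed by 0.04, and a probe set annotated to both differed by 0.04 (adjusted p = 0.43 over probe sets in limma). How far each gene's probes also bind the other's RNA was not tested. The call of Acot1 was kept in the 7 alternatives with all arrays that measured it, but was lost when any array other than tumour 2 was left out (highest adjusted p = 0.0905 in limma, without wild type 62). Acot8, the peroxisomal thioesterase, differed by -0.53 without a call, with every tumour lower.

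Of the acyl-CoA synthetases that activate long chains, 2 were measured. Acsl5, the form typical of the intestine, read 9.58, 9.72 and 10.63 in tumours 16, 18 and 2 and 12.47 and 12.47 in wild types 36 and 62. It fell by 2.50 (SE 0.36, adjusted p = 0.0188), or 5.65-fold, with tumour 2 nearest to wild type. Its wild-type values agreed to within 0.01, which lowers the estimated spread. Acsl4, which prefers arachidonic acid, had all 5 values below the 25th percentile in its brightest probe set and differed by -0.04. Its direction depended on the probe set, since another differed by 0.53 (adjusted p = 0.0687 over probe sets in limma).

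Of the 2 regulators, 1 fell and 1 did not pass. Ppargc1a encodes PGC-1 alpha, the coactivator that raises transcription of oxidative genes. It read 6.55, 7.47 and 7.35 in tumours 16, 18 and 2 and 9.96 and 9.69 in wild types 36 and 62. It fell by 2.70 (SE 0.33, adjusted p = 0.0133), or 6.50-fold, and its other 4 probe sets were all called, with changes from -2.55 to -2.19. Pdk4, the kinase that turns off pyruvate dehydrogenase when fat is burned, was below the 25th percentile on all 5 arrays and differed by -0.35 without a call.

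Of 5 peroxins, the proteins that build peroxisomes and import their enzymes, 2 fell and 3 did not pass. Pex11a, which acts in peroxisome elongation and division, read 8.71, 8.44 and 8.54 in tumours 16, 18 and 2 and 9.59 and 9.61 in wild types 36 and 62. It fell by 1.03 (SE 0.09, adjusted p = 0.00761), or 2.04-fold, and its other probe set was called too, at -0.96. Pex19, the chaperone of peroxisomal membrane proteins, read 9.02, 8.95 and 8.83 in tumours 16, 18 and 2 and 9.57 and 9.82 in wild types 36 and 62 and fell by 0.76 (SE 0.10, adjusted p = 0.0164), or 1.69-fold. The other Pex19 probe set differed by -0.27 and was called (adjusted p = 0.0373 over probe sets in limma). Pex7, the receptor for the rarer N-terminal import signal that peroxisomal thiolases carry, differed by -0.56 without a call. Pex14, the docking protein, differed by -0.07. Pex5, the receptor for the common C-terminal signal, differed by 0.06 in its brightest probe set and by -0.67 in the other, which was called (adjusted p = 0.042 over probe sets in limma), so that its direction depended on the probe set.

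Across the organelles, 8 of 11 peroxisomal enzymes fell and 7 of 19 mitochondrial enzymes fell, against 10.5% of all genes. The median change was -0.68 for peroxisomal and -0.53 for mitochondrial enzymes. Falls of 1 or more were measured for 5 of 11 and 4 of 19. Counting Crat, Eci2 and Amacr, which act in both, with the peroxisomal enzymes gave 9 of 14 and a median of -0.62. The peroxisomal median was -1.11 when probe sets below the 40th percentile of signal were left out and -1.18 when those with shared targets were. Both alternatives measured only 10 of the 11 peroxisomal enzymes, so these 2 medians are over a shorter list than the -0.68. The mitochondrial medians were then -0.53 and -0.67, over all 19 enzymes. Without wild type 36 the order of the medians turned, to -0.56 for peroxisomal and -0.57 for mitochondrial enzymes, and without tumour 16 and tied probe sets both were -0.66. Tumour by tumour, the median of mitochondrial enzymes relative to wild type was -0.63 in tumour 16, -0.49 in tumour 18 and -0.41 in tumour 2. For peroxisomal enzymes these medians were -0.71, -0.72 and -0.63. The enzymes of a group are not replicates, so the difference between the organelles was not tested over them. Without tumour 16, 18 or 2, in that order, 3, 2 and 9 peroxisomal enzymes were lower. Of mitochondrial enzymes, 2, 3 and 9 were lower, and of all genes 2.9%, 4.05% and 8.75%.

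**Figure D3:**
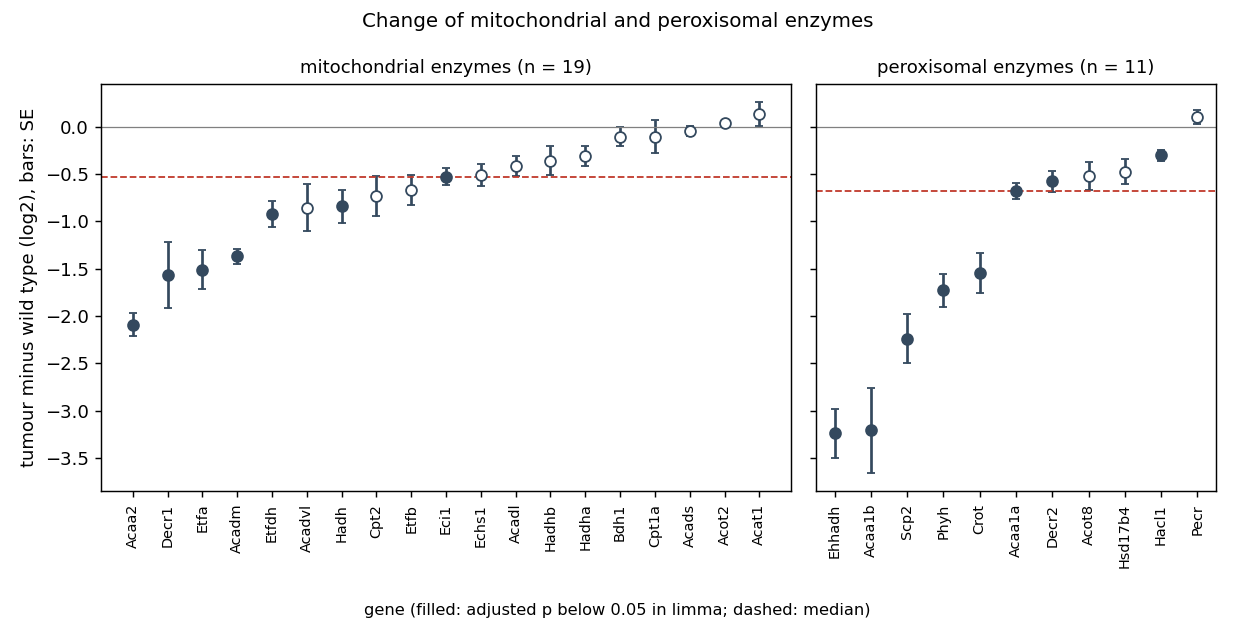
Change of each mitochondrial enzyme (19 genes) and peroxisomal enzyme (11 genes), tumour minus wild type in log2 units with limma's SE as bars. Filled points have an adjusted p below 0.05, and dashed lines mark the medians of -0.53 and -0.68.

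Enzymes that catalyse like steps in the 2 organelles were compared directly, by the difference of their changes on the same arrays, in 8 pairs. With 5 arrays an exact two-sided permutation test cannot go below p = 0.1, or 0.2 after adjustment over the 8 pairs, so no pair could pass. The change of Ehhadh lay below that of Hadha (a difference of -2.93, exact permutation p = 0.1). Acaa1b lay below Acaa2 by the same measure (-1.11, p = 0.1 by exact permutation), while Acaa1a lay above it (1.42, p = 0.1 by exact permutation). For the dienoyl-CoA reductases the order was opposite to that of Ehhadh and Hadha, with Decr2 changing less than Decr1 (0.99, exact permutation p = 0.1). Crot differed from Cpt2 by -0.81 and Acot8 from Acot2 by -0.56, each with an exact permutation p of 0.2 (0.267 adjusted over the pairs). Hsd17b4 and Hadha differed by -0.16 and Eci2 and Eci1 by 0.13, with exact permutation p-values of 0.5 and 0.6 (0.571 and 0.6 adjusted). Peroxisomal counterparts had the larger fall in 5 pairs and the smaller in 3, which is a description only. Acaa2 and Hadha each stand in 2 pairs, and Eci2, counted here as peroxisomal, acts in both organelles.

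Tumour 2 had the highest value of the 3 tumours for 13 of 19 mitochondrial enzymes (68.4%) and 7 of 11 peroxisomal enzymes (63.6%). The share was 30.4% over all genes and 55.5% over all genes called lower. Of these enzymes, 12 mitochondrial and 3 peroxisomal ones were not called, so neither share is a like reference. The shares of the enzymes are therefore not read as a result about the members. Tumour 2 was highest for 2 of 10 enterocyte markers, whose median was least negative in tumour 18 (-3.02) and most negative in tumour 16 (-4.46). The medians of all members (-0.63) and of mitochondrial enzymes (-0.63) were also most negative in tumour 16, but that of peroxisomal enzymes in tumour 18 (-0.72). Of the members, only Phyh, Ppargc1a, Hsd17b4, Amacr and Pdk4 ran in the order of the marker medians, with tumour 16 lowest and tumour 18 highest. The share of all genes in this order was not counted, so it is no result about the members.

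Among the 43 members, 19 had more than 1 probe set with a single symbol. All probe sets of a gene gave the same call for 12 of these genes and the same sign for 15. Over all 43 members there were 72 single-symbol probe sets. Of these 72, 36 were lower and 1 was higher by limma's adjusted p over probe sets, where 8.72% of all probe sets were lower. Taking the mean over the probe sets of a gene gave 25 lower members, where 11.7% of all genes were lower. Crat, Decr1, Hadhb, Hsd17b4 and Pex5 were called lower over probe sets in a dimmer probe set and not in the brightest.

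**Figure D4:**
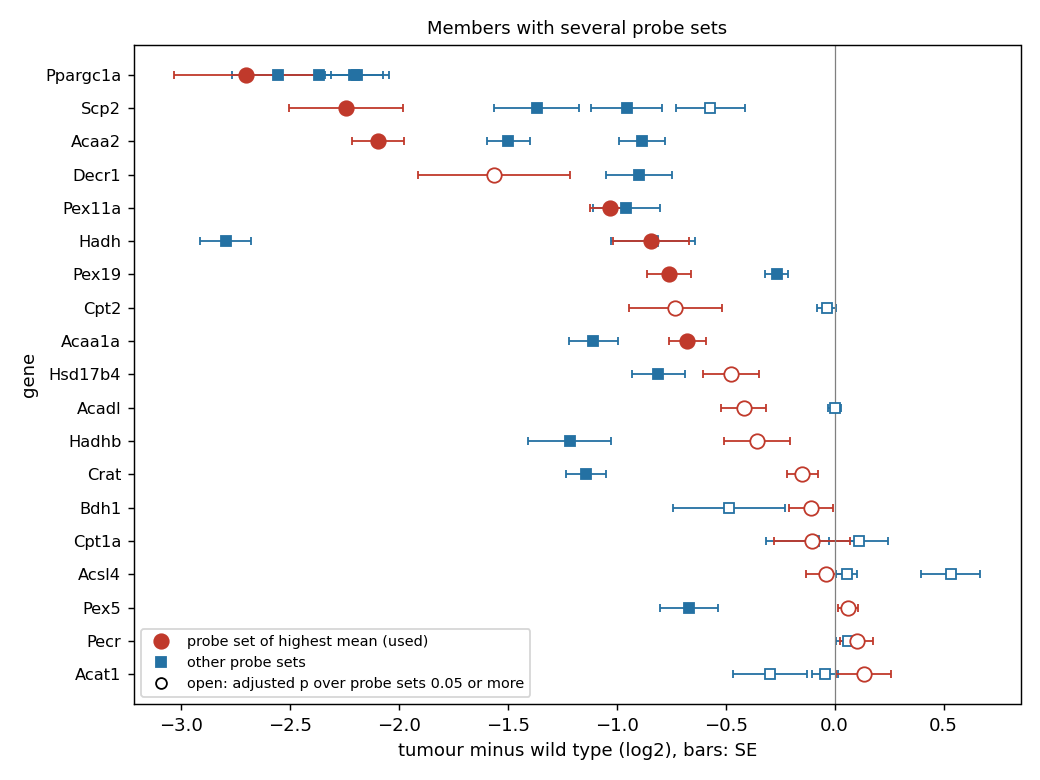
Change of every single-symbol probe set (x axis, tumour minus wild type in log2 units, with SE) of the 19 members that have more than 1 (y axis). Circles are the probe sets of highest mean and squares the others; open symbols have an adjusted p over probe sets of 0.05 or more. The probe sets of Hadh (-2.79 to -0.83) and Scp2 (-2.24 to -0.57) lie farthest apart.

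Genes of the same pathways outside the 45 were described from 4 lists. Of 78 measured, 19 fell, 4 rose and 55 did not pass, with a median of -0.14, where 10.5% of all genes were lower and 11.3% higher. The share of lower genes in these lists was 24.4%. Among 30 further peroxisomal enzymes and transporters, 10 fell (33.3%) and 1 rose. The falls were largest for Slc27a2, a very-long-chain acyl-CoA synthetase and fatty acid transporter (-3.68), catalase (Cat, -1.87), D-amino acid oxidase (Dao, -1.48) and pipecolate oxidase (Pipox, -1.30). Far1, the fatty acyl-CoA reductase of ether lipid synthesis, rose by 0.92 (SE 0.07, adjusted p = 0.00674). Among 19 further mitochondrial and ketone genes 4 fell (21.1%) and 1 rose. These were Acad11 (-1.23), an acyl-CoA dehydrogenase, the kinase gene Pdk2 (-0.97), the acetyl-CoA synthetase gene Acss1 (-0.87), the thioesterase gene Acot13 (-0.80) and, higher, the malonyl-CoA transferase gene Mcat (0.37) of mitochondrial fatty acid synthesis.

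Of 7 further peroxins, Pex13 (-1.16) and Pex2 (-0.61) fell, a share of 28.6% of a short list, and Pex26 rose (0.50). Among 22 receptors, partners and other targets of PPARs, 3 fell, a share of 13.6% against 10.5% of all genes, and 1 rose. They were Esrra, the orphan receptor that works with PGC-1 alpha (-0.92), the liver X receptor gene Nr1h3 (-0.42), Txnip (-0.26) and, higher, the retinoid X receptor gene Rxrb (0.38). Falls of 1 or more were measured for 3 of the 22 (13.6%), all without a call, against 5.18% of all genes. Of the 22 changes, 18 were negative and 4 positive. Ppara itself differed by -0.63 with an adjusted p of 0.144 and did not pass. Hnf4a, a nuclear receptor of enterocytes, differed by 0.00.

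Promoter windows of 300 bases (250 before and 50 after the start) were found in RefSeq for 36 of the 43 members and 9887 of all measured genes. GGGCGG stood on either strand in 27 of the 36 (75%), against 61% of the measured genes and 35.7% of all 32851 windows of the table. The 9 members without it had a median change of -1.51, and 6 of them had a fall of 1 or more: Acaa1b, Acadm, Acsl5, Etfa, Phyh and Ppargc1a. The 27 members with it had a median of -0.51, and 4 had such a fall. Over all measured genes, 6% of those without and 4.84% of those with the GC box had such a fall. CCAAT was in 19 of 36 members (52.8%) and 42.3% of measured genes. AGGTCA was in 6 members (16.7%), namely Acadm, Acadvl, Cpt1a, Echs1, Phyh and Scp2, and in 16% of measured genes. The full PPAR element, AGGTCANAGGTCA, contains the core hexamer 2 times. It was in 0 of 36 members and in 0.0405% of measured genes, and CAAAGTCCA, an HNF4 site, in 0 and 0.708%. Motifs this rare were likely to be missing from 36 members, so the 0 is no result about them. All of these are matches of letters in a short window and say nothing of binding.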

How the data were processed

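Labelled RNA from 3 tumour and 2 wild-type samples was hybridised to 1-colour Affymetrix arrays with 22626 probe sets beside controls. The submitters' processing notes name the affy package, and the values the authors deposited are log2 signals. How probes were summarised, corrected for background and normalized is not given in the sources used here. Array medians lay between 6.81 and 6.87. Scanner files were not used here, so the signal over background is known only through percentiles of each array.

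Here the deposited log2 values were kept. Probe sets were named through the platform annotation: 20380 have 1 gene symbol, 691 have several and 1555 have none. Each gene was taken from its single-symbol probe set with the highest mean over the 5 arrays. Tumours were compared with wild types by lmFit and eBayes of limma 3.58.1, run under R 4.3.3 (two-sided, Benjamini-Hochberg over 12393 genes, threshold 0.05, 3 residual degrees of freedom), and the code was tested on simulated data. Exact permutation tests compared pairs of genes. The number of arrays limits the precision. Promoters were read from RefSeq windows of assembly GRCm38.p6.

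The members and gene lists were chosen with earlier results of these data known. All measured members were named, and values on every array were given for members past the threshold or with a difference of 1 or more. Of each further list, up to 4 called genes with the largest change were named, and the largest call against the majority. Ppara, Hnf4a, Lipe and Kdr were named after their values were seen, as were the per-array values of members that did not pass. Alternatives were array weights, median centring, quantile normalization, eBayes with trend and robust, the mean of all probe sets, leaving out dim, tied or shared-target probe sets, counting dual enzymes in, and leaving out each array.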

Additional observations from a re-analysis of the deposited data

How the results depend on the processing

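No paired analysis was possible because the groups share no replicate numbers. With all arrays kept, the counts of lower members, of lower mitochondrial and peroxisomal enzymes and of lower and higher other pathway genes stayed within 1.5 times under every alternative run, with 20 to 25 lower members. Of all genes, 9.81% to 15% were lower in the alternatives that refitted all arrays. The count of higher members became 0 when probe sets under the 40th percentile of signal were dropped, since Acot1 was then not measured. In that fit limma gave 27 of the 37 measured members an unadjusted p under 0.05, against 3866 of all 8680 measured genes. The median of mitochondrial enzymes was -0.67 with shared-target probe sets left out. That of peroxisomal enzymes was -0.89 with the mean of probe sets, -0.60 with quantile normalization and -0.62 with Crat, Eci2 and Amacr counted in. It was -1.11 with dim and -1.18 with shared-target probe sets left out, each over 10 enzymes in place of 11.

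Leaving out 1 array, with or without tied probe sets, gave 0 to 27 lower members (11 without wild type 62 and ties) and 0 to 2 higher members, 0 to 12 lower mitochondrial and 0 to 9 lower peroxisomal enzymes, and 0 to 25 lower and 0 to 7 higher other pathway genes. Of all genes, 2.9% to 14% were lower in the fits that left out a tumour. Without wild type 36 the mitochondrial median (-0.57) was below the peroxisomal one (-0.56). The medians ranged from -0.66 to -0.53 for mitochondrial and from -0.79 to -0.56 for peroxisomal enzymes. Without wild type 62, limma called 0 genes, and 3880 genes, 23 of them members, had an unadjusted p under 0.05. With 1 wild type left, it is assumed to vary like the tumours.

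The direction turned for 4 members that did not pass. Cpt1a was 0.0169 without tumour 16, with or without ties, and -0.2455 at the other end, without tumour 2. Acat1 was -0.06887 with the mean of probe sets and -0.30 without shared targets. Pex5 was -0.30 and -0.67 under the same alternatives and -0.66 without tumour 2 and ties. Acsl4 was 0.008368 with array weights, 0.18 with the mean, 0.53 without shared targets and 0.05567 without ties. Without 1 array it ranged from -0.08667 (tumour 16) to 0.04124 (tumour 2), and with ties also out it was 0.63 without tumour 16 and 0.07326 without tumour 18 or tumour 2. For Acat1, Pex5 and Acsl4 the values with the mean, without shared targets or without ties come from other probe sets than the one used. Cpt1a turned without tumour 16, which held its lowest tumour value (8.45). With ties kept, Acsl4 turned without tumour 2, which held its lowest value (5.57). It also turned with array weights, where tumour 2 weighed least (0.654).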
